A study of Mus musculus with 2 samples.

Results

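Among single cells sequenced from haematopoietic stem cell preparations of mouse bone marrow, T cells and natural killer (NK) cells, chosen by their own transcripts, made up 290 of 11214 kept cells. T cells recognise antigen through a rearranged receptor that signals through the CD3 chains. NK cells lack that receptor and read other cells through families of activating and inhibitory surface receptors. A kept cell was a barcode with at least 2500 unique molecular identifiers (UMIs, tags that count captured transcripts), at least 500 genes and at most 10% mitochondrial UMIs. A T cell was a kept cell with at least 2 UMIs of the CD3 genes Cd3d, Cd3e and Cd3g summed. An NK cell was a kept cell with at most 1 CD3 UMI and at least 3 UMIs summed over Klrd1, Ncr1, Gzma and Klrb1c. By this rule 130 cells were T cells and 160 were NK cells. The cells were selected on the levels of these 7 genes, whose values in them are therefore given as a description.

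Cells came from wild-type C57BL/6J mice that had met Listeria monocytogenes, an intracellular bacterium, 6 weeks before, and from naive mice of that strain and genotype. Each group was 1 library, made with a kit that counts transcripts from their 3′ ends. The Listeria library gave 43 T cells and 49 NK cells among 4839 kept cells, and the naive library 87 T cells and 111 NK cells among 6375. The labels put the mice of both groups at 6 to 8 weeks of age, which the protocol places when the marrow was taken. With 6 weeks since the challenge, it is unclear whether that age holds for the Listeria mice at sampling. How many animals were pooled and which surface markers were used to purify the cells are not stated. One deposited name, that of the Listeria library, speaks of a knockout, although its labels say wild type like those of the naive mice. The labels were used here, and a genotype difference, had there been one, cannot be told apart from the challenge. No difference between these 2 libraries could be checked against replicates, and no p-value is given. Cells of the Listeria library are called Listeria cells below and those of the naive library naive cells. All intervals are 95% exact intervals that cover counting error only.

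Bone marrow is where NK cells develop, passing through immature stages with little killing machinery before they acquire Ly49 receptors and granule proteins and leave. Mature T cells return to the marrow after development in the thymus, and memory T cells are kept there by survival signals. T cells carry either an αβ receptor, whose chains end in the constant regions Trac and Trbc1 or Trbc2, or a γδ receptor, which uses Trdc and the Tcrg constant genes. Neither lineage belongs to the stem cell compartment that the labels name.

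The Listeria library held 43895966 UMIs and the naive library 64619150. Both T and NK cells were shallower than the rest of the kept cells. The median was 3897 UMIs in Listeria and 4356 in naive T cells, 4854 in Listeria and 5850 in naive NK cells, and 7239 in Listeria and 6972 in naive kept cells overall. B-lineage cells, which should lack T and NK transcripts and were used to show the level of free RNA, were kept cells with at least 5 UMIs of Cd79a, Vpreb1 and Igll1 summed, at most 1 CD3 UMI and at most 2 UMIs of the NK gate genes. They had a median of 10029 UMIs in 411 Listeria cells and 9348 UMIs in 1427 naive cells. The libraries shared 14 barcodes among kept cells, and 0 barcodes were T or NK cells in both. Doublets were not called, and cells with transcripts of 2 lineages are described below as such.

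In T cells the lowest, median and highest CD3 sums were 2, 5 and 15 UMIs in the Listeria library and 2, 4 and 14 UMIs in the naive library. In NK cells the sums of the 4 NK genes were 3, 5 and 34 UMIs in the Listeria library and 3, 4 and 36 UMIs in the naive library. Cells at the edge of each gate were mixed. Among kept cells with 1 CD3 UMI, just outside the T gate, 44.4% of 27 Listeria and 63.6% of 66 naive cells had a transcript of a T cell receptor constant gene, beside 5.26% of 4769 Listeria and 9.88% of 6222 naive cells with 0 CD3 UMIs. Those with 2 CD3 UMIs, just inside, had one in 66.7% of 6 Listeria and 95.7% of 23 naive cells, and those with 3 or more in 97.3% of 37 Listeria and 96.9% of 64 naive cells. For the NK gate, Xcl1, a chemokine gene that the rule did not use, was found in 50% of 12 Listeria and 27.9% of 43 naive cells with 2 UMIs of the NK genes. It was found in 75% of 12 Listeria and 33.3% of 36 naive cells with 3 UMIs, and in 78.4% of 37 Listeria and 70.7% of 75 naive cells with 4 or more.

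**Figure D1:**
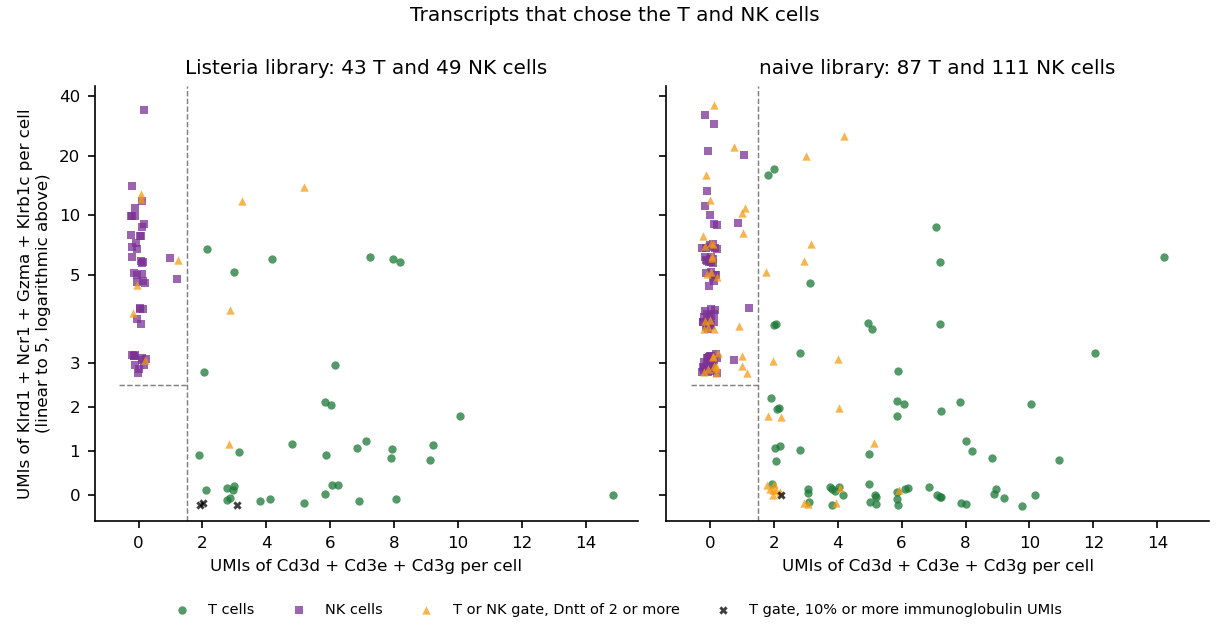
UMIs of the CD3 genes (x axis) and of the 4 NK genes (y axis, linear to 5 and logarithmic above) in each of the 92 T and NK cells of the Listeria library (left) and the 198 of the naive library (right), with small random offsets; dashed lines are the gates. Triangles are cells with at least 2 Dntt UMIs and crosses the plasma cells in the T gate. NK cells lie at 0 or 1 CD3 UMI by rule, and T cells reach 15 CD3 UMIs in the Listeria library and 14 in the naive library.

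The labels T cell and NK cell were checked against genes that the rule did not use. A T cell receptor constant transcript was found in 40 of 43 Listeria and 84 of 87 naive T cells, so 3 cells in each library passed the T gate without one. The remaining values leave out the cells with Dntt or immunoglobulin transcripts described below, which leaves 36 Listeria and 63 naive T cells and 43 Listeria and 77 naive NK cells. Trac was found in 13 of 36 Listeria and 23 of 63 naive T cells, against 1 of 411 Listeria and 4 of 1427 naive B-lineage cells. Ccl5, the chemokine RANTES, was found in 31 of 36 Listeria and 43 of 63 naive T cells and in 37 of 43 Listeria and 54 of 77 naive NK cells, against 5 of 411 Listeria and 33 of 1427 naive B-lineage cells. Among kept cells with 0 CD3 UMIs, which include most NK-gate cells, Ccl5 was found in 377 of 4769 Listeria (7.91%) and 505 of 6222 naive cells (8.12%). Xcl1 was found there in 70 Listeria (1.47%) and 177 naive cells (2.84%). These counts exceed the 49 Listeria and 111 naive NK-gate cells, so both genes were also found outside the gates. Because NK-gate cells are among them, the shares cannot show how frequent Ccl5 and Xcl1 were in ungated cells. Tyrobp, an adaptor of NK receptors, was found in 38 of 43 Listeria and 68 of 77 naive NK cells and Xcl1 in 38 of 43 Listeria and 60 of 77 naive NK cells. In B-lineage cells, which were deeper, Tyrobp was found in 11 of 411 Listeria and 67 of 1427 naive and Xcl1 in 1 of 411 Listeria and 5 of 1427 naive cells. The markers of each lineage thus stood far above their share in B-lineage cells. That share cannot show what mixed droplets give, because the gate gene limits can remove droplets mixing B-lineage with T or NK cells. Of the genes that chose the cells, Cd3g was found in 32 of 36 Listeria and 57 of 63 naive T cells, and Klrd1, a lectin-like receptor subunit, in 36 of 43 Listeria and 50 of 77 naive NK cells. Ncr1, which encodes the activating receptor NKp46, was found in 27 of 43 Listeria and 33 of 77 naive NK cells. No gate gene is compared with the B-lineage cells, which were limited in the same genes.

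The CD3 genes lie together on mouse chromosome 9 of GRCm38, Cd3g at chr9:44969572-44980431, minus strand, Cd3d at chr9:44981786-44987339, plus strand and Cd3e at chr9:44998740-45009627, minus strand. Cd3g and Cd3d are transcribed away from each other from starts 1355 bases apart. Of the T cells without plasma and Dntt cells, 52.8% (19 of 36) in the Listeria library and 49.2% (31 of 63) in the naive library had UMIs of all 3 CD3 genes, and 8.33% of Listeria and 7.94% of naive cells had Cd3g alone. Among the T cells with Dntt, Cd3g alone was found in 2 of 4 cells of the Listeria library and 15 of 23 of the naive library. All 4 plasma cells that the gate took in also had Cd3g and neither Cd3d nor Cd3e. Because these neighbouring genes parted in those cells, the 250 bases before the starts of Cd3g and Cd3d are shown, beside those of the NK gene Ncr1 (chr7:4337724-4345164, plus strand). The sequences are RefSeq promoters of GRCm38.p6, each 5′ to 3′ on the gene's own strand. Capitals mark matches, on either strand, to CAGGTG (a form of the E-box bound by E proteins), AGGTGT (the core of the T-box, the family of Tbx21 and Eomes), CTTTGA (TCF and LEF factors), GGAAGT (ETS factors) and TGTGGT (RUNX factors).
Cd3g, chr9:44980432-44980681, minus strand: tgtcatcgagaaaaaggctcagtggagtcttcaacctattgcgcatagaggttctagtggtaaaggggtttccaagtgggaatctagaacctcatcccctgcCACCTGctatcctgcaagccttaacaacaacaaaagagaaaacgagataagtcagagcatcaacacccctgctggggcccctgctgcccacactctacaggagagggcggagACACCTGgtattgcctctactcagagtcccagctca
Cd3d, chr9:44981536-44981785, plus strand: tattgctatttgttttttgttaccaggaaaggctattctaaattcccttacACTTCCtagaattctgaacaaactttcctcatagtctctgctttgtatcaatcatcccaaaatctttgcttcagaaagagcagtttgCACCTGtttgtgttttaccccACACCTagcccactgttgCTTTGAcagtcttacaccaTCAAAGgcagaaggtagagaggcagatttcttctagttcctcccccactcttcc
Ncr1, chr7:4337465-4337714, plus strand: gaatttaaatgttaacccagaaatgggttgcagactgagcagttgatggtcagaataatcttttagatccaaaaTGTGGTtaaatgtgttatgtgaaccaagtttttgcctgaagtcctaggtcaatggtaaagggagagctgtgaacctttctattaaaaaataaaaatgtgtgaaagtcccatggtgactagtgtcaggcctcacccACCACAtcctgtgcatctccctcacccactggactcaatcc

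The Cd3g promoter held CAGGTG on the reverse strand at -148 and at -35, counted from the gene start, the second overlapping AGGTGT at -36. The Cd3d promoter held CTTTGA at -73 and, reversed, at -54, with reversed AGGTGT at -91, CAGGTG at -112 and GGAAGT at -199. The Ncr1 promoter held TGTGGT at -176 and, reversed, at -41. Such short words are common. Of 27025 RefSeq mouse promoters cut to the same 250 bases, 17.1% held CAGGTG, 11.99% AGGTGT, 14.05% CTTTGA, 19.99% GGAAGT and 14.18% TGTGGT. The matches describe these letters and do not show binding.

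The T gate took in 4 plasma cells, the antibody-secreting end stage of B cells. They were set apart after their values were seen, as cells with at least 10% immunoglobulin UMIs. In the Listeria library there were 3, with 12000, 17595 and 22032 UMIs, of which 19.2%, 30.4% and 67.1% were immunoglobulin. In the naive library there was 1, with 17696 UMIs and 47.2% immunoglobulin. The next highest immunoglobulin share of any T or NK cell was 0.164% in the Listeria library and 0.245% in the naive library. The 4 cells had 2 or 3 Cd3g UMIs, 0 UMIs of any T cell receptor constant gene, and, in the same order, 217, 14, 560 and 587 UMIs of Jchain, which joins IgA and IgM into polymers. Among all kept cells there were 33 Listeria and 82 naive plasma cells by this cut, of which 4 Listeria and 2 naive cells had a Cd3g UMI. Small as their number was, they held 22.2% of the T cell UMIs of the Listeria library and 3.32% of those of the naive library, so sums over all T cells are partly theirs.

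A second set carried at least 2 UMIs of Dntt, which encodes the terminal transferase that adds bases during antigen receptor rearrangement in early lymphoid cells. This cut, too, was chosen after the values were seen. These were 4 of 43 Listeria (9.30%, 2.59% to 22.1%) and 23 of 87 naive T cells (26.4%, 17.6% to 37.0%). In the NK gate they were 6 of 49 Listeria (12.2%, 4.63% to 24.8%) and 34 of 111 naive cells (30.6%, 22.2% to 40.1%). After each cell was thinned to 2500 UMIs the shares were 9.30% of Listeria and 13.8% of naive T cells, and 4.08% of Listeria and 18.9% of naive NK cells. Dntt of 2 or more also marked 10.4% of 4769 Listeria and 25.8% of 6222 naive kept cells with 0 CD3 UMIs, a set that includes most NK-gate cells.

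The Dntt cells of both gates had some of the transcripts known from early lymphoid progenitors. Ccr9, a homing receptor for the thymus and gut, was found in 3 of 4 Listeria and 16 of 23 naive T-gate cells and in 5 of 6 Listeria and 28 of 34 naive NK-gate cells with Dntt. Bcl11b, which fixes T cell commitment, was found in 4 of 4 Listeria and 17 of 23 naive T-gate cells and in 5 of 6 Listeria and 23 of 34 naive NK-gate cells. Tcf7, the Notch-induced factor TCF1, was found in 4 of 4 Listeria and 16 of 23 naive T-gate cells and in 5 of 6 Listeria and 26 of 34 naive NK-gate cells. Without plasma and Dntt cells, Tcf7 was also found in 17 of 36 Listeria and 33 of 63 naive T cells. It was found in 24 of 43 Listeria and 44 of 77 naive NK cells without Dntt. Flt3, a progenitor gene, was rare in Dntt cells, in 0 of 4 Listeria and 1 of 23 naive T-gate and 1 of 6 Listeria and 2 of 34 naive NK-gate cells. The Dntt cells mostly lacked the effector genes Ccl5 and Xcl1, but part of the naive ones had Nkg7. Nkg7, a granule membrane gene, was found in 0 of 4 Listeria and 9 of 23 naive T-gate cells with Dntt. In NK-gate cells with Dntt it was found in 0 of 6 Listeria and 16 of 34 naive cells. Ccl5 was found in 0 of 4 Listeria and 1 of 23 naive T-gate cells and in 0 of 6 Listeria and 7 of 34 naive NK-gate cells with Dntt. Xcl1 was found in 0 of 4 Listeria and 2 of 23 naive T-gate cells and in 0 of 6 Listeria and 5 of 34 naive NK-gate cells. Most of them passed the NK gate through Gzma, a granule protease gene, which was the only NK gate gene in 5 of 6 Listeria and 27 of 34 naive NK-gate cells with Dntt, against 1 of 43 Listeria and 9 of 77 naive NK cells without it. Receptor constant genes were present in part: Trbc1 was found in 5 of 6 Listeria and 31 of 34 naive NK-gate cells with Dntt, and Trac in 0 of 6 Listeria and 2 of 34 naive.

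Some Dntt cells also carried genes of rearrangement, division or another lineage. Rag1, which cuts the receptor genes for rearrangement, was found in 0 of 4 Listeria and 8 of 23 naive T-gate cells with Dntt. In NK-gate cells with Dntt, Rag1 was found in 1 of 6 Listeria and 2 of 34 naive cells. Mki67, a mark of dividing cells, was found in 2 of 6 Listeria and 13 of 34 naive NK-gate cells with Dntt. Ly6d, an early lymphoid surface gene, was found in 2 of 4 Listeria and 16 of 23 naive T-gate cells and in 0 of 6 Listeria and 9 of 34 naive NK-gate cells. The 11 B-lineage markers summed to 1 UMI in Listeria and 170 UMIs in naive T-gate cells with Dntt, with 96 UMIs in 1 naive cell. In NK-gate cells with Dntt they summed to 3 UMIs in Listeria and 500 UMIs in naive cells, with 133 UMIs in 1 naive cell. So B-lineage transcripts lay in the naive Dntt cells, and there in few of them. One naive T-gate cell with Dntt held 3298 UMIs of the 12 neutrophil granule markers. From here on, T cells and NK cells without further words are those without the plasma and Dntt cells.

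The T cells held a mixture of receptor transcripts, with few CD4 or CD8 transcripts. By the receptor genes, 24 of all 43 Listeria T cells (55.8%) and 45 of all 87 naive T cells (51.7%) had αβ transcripts without γδ ones, or Trac. Another 13 Listeria (30.2%) and 34 naive T cells (39.1%) had at least 2 UMIs of Trdc and the Tcrg constant genes with no Trac, and 6 Listeria and 8 naive cells passed neither rule. In this γδ gate, 1 Listeria cell and 12 naive cells were Dntt cells. Without plasma and Dntt cells it held 12 Listeria and 22 naive cells. Trdc was found in 3 of 4 Listeria and 14 of 23 naive T-gate cells with Dntt. Thinned to 2500 UMIs, the γδ shares were 27.9% of all Listeria and 27.6% of all naive T cells. Cd4, the coreceptor of helper T cells, was found in 0 of 43 Listeria and 0 of 87 naive T cells. The exact intervals allow a share of cells with a UMI of up to 8.22% in the Listeria and 4.15% in the naive library. Cd8a or Cd8b1, the coreceptor of cytotoxic T cells, was found in 0 of 43 Listeria and 3 of 87 naive T cells. At least 2 UMIs summed over Foxp3, Ctla4 and Ikzf2, genes of regulatory T cells, were found in 9 of all 43 Listeria (20.9%) and 26 of all 87 naive T cells (29.9%), and after thinning in 6.98% of Listeria and 19.5% of naive T cells. Foxp3 itself was found in 0 of 43 Listeria and 0 of 87 naive T cells.

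The variable, diversity and joining segments of the receptor genes, which lie toward the 5′ end of the transcript, were seldom captured in these 3′ libraries. At least 1 of the 260 such segments in the files was found in 18 of all 43 Listeria and 24 of all 87 naive T cells, with 34 UMIs in each library, all of variable segments. In all NK cells they were found in 1 of 49 Listeria and 8 of 111 naive cells. Trgv2, a gamma segment, was found in 8 Listeria and 8 naive T cells, with 9 UMIs in each library. Trdv4, a delta segment, was found in 7 of 43 Listeria T cells (16.3%, 6.81% to 30.7%) with 13 UMIs, and in 4 of 87 naive T cells (4.60%, 1.27% to 11.4%) with 6 UMIs. The 2 intervals overlap. Trav11, the alpha segment of invariant NKT cells, was found in 0 Listeria cells and 1 naive cell, and the beta segment Trbv13-2 in 0 Listeria and 4 naive T cells.

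T cells with Trac were compared with T cells of the γδ gate, called γδ cells here after the gate alone. The αβ constant gene Trbc2 was found in 11 of 12 Listeria γδ cells and 11 of 13 Listeria Trac cells. Trdc was found in 3 of 13 Listeria Trac cells. Trac was found in only 13 of 36 Listeria and 23 of 63 naive T cells, so the gate cannot exclude αβ cells. The medians were 3835 UMIs in Listeria and 4040 UMIs in naive Trac cells, and 3352.5 UMIs in Listeria and 3740 UMIs in naive γδ cells. Trgv2, which neither rule used, was found in 1 of 13 Listeria and 1 of 23 naive Trac cells and in 6 of 12 Listeria and 5 of 22 naive γδ cells. Both kinds carried effector genes. Ccl5 was found in 13 of 13 Listeria and 19 of 23 naive Trac cells and in 8 of 12 Listeria and 15 of 22 naive γδ cells. Nkg7, a granule membrane gene, was found in 11 of 13 Listeria and 18 of 23 naive Trac cells and in 8 of 12 Listeria and 15 of 22 naive γδ cells. Ly6c2, carried by memory T cells, was found in 11 of 13 Listeria and 17 of 23 naive Trac cells and in 8 of 12 Listeria and 15 of 22 naive γδ cells. In each of these the 2 kinds differed by little beside their small numbers. Cxcr6, a receptor of tissue-resident lymphocytes, was found in 6 of 13 Listeria and 6 of 23 naive Trac cells and in 3 of 12 Listeria and 4 of 22 naive γδ cells. Icos, a costimulatory receptor, was found in 1 of 13 Listeria and 9 of 23 naive Trac cells and in 2 of 12 Listeria and 2 of 22 naive γδ cells. Ccr7, which guides cells to lymph nodes, was found in 0 of 13 Listeria and 2 of 23 naive Trac cells and in 3 of 12 Listeria and 6 of 22 naive γδ cells. Sox13 and Cd163l1, genes of γδ T cells that make interleukin 17, were rare. Sox13 was found in 1 of 12 Listeria and 1 of 22 naive γδ cells and Cd163l1 in 3 of 12 Listeria and 2 of 22 naive.

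Many T cells also had NK receptors. Klrd1 was found in 15 of 36 Listeria and 20 of 63 naive T cells, and Klrb1c, which encodes NK1.1, in 13 of 36 Listeria and 16 of 63 naive T cells. Klrk1, which encodes NKG2D, was found in 23 of 36 Listeria and 30 of 63 naive T cells, but Ncr1 in 7 of 36 Listeria and 4 of 63 naive. Il2rb, the receptor chain through which interleukin 15 keeps memory T cells and NK cells alive, was found in 25 of 36 Listeria and 48 of 63 naive T cells. These genes were thus shared with NK cells, of which 34 of 43 Listeria and 58 of 77 naive had Il2rb. Per T cell, the lowest, median and highest Ccl5 counts were 0, 15.5 and 61 UMIs in the Listeria library and 0, 10 and 87 UMIs in the naive library. Ifng, the gene of interferon gamma, was found in 14 of 36 Listeria and 19 of 63 naive T cells. The factors of type 1 and memory lymphocytes were found in a minority of the cells, Tbx21 in 10 of 36 Listeria and 6 of 63 naive and Eomes in 12 of 36 Listeria and 7 of 63 naive T cells.

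NK cells had genes known from immature and from mature NK cells. The 13 genes of the immature NK list had more UMIs than the 15 of the mature list in 46 of all 49 Listeria and 103 of all 111 naive NK cells, and the reverse held in 2 Listeria and 7 naive cells. Such sums follow how abundant each gene is, and the lists leaned the same way in T cells, with 839 UMIs of the immature and 470 UMIs of the mature list in Listeria T cells and 1446 UMIs and 680 UMIs in naive T cells. Xcl1, on the immature list, was found in 38 of 43 Listeria and 60 of 77 naive NK cells, with lowest, median and highest counts of 0, 6 and 27 UMIs in the Listeria library and 0, 7 and 40 UMIs in the naive library. Of the genes of full maturity, Itgam, which encodes CD11b, was found in 1 of 43 Listeria and 4 of 77 naive NK cells and Klrg1 in 1 of 43 Listeria and 3 of 77 naive. Killing genes were present in part of the cells. Gzma was found in 9 of 43 Listeria and 29 of 77 naive NK cells, Gzmb in 2 of 43 Listeria and 6 of 77 naive and Prf1, the pore-forming perforin, in 11 of 43 Listeria and 19 of 77 naive. Nkg7 was found in 40 of 43 Listeria and 65 of 77 naive NK cells, and the adaptor gene Fcer1g in 39 of 43 Listeria and 61 of 77 naive. Nkg7 was not particular to these lineages, being found in 33.1% of 4769 Listeria and 29.4% of 6222 naive kept cells with 0 CD3 UMIs. Ifng was found in 18 of 43 Listeria and 32 of 77 naive NK cells, with at most 29 UMIs in a Listeria and 22 UMIs in a naive cell. Transcripts of receptor constant genes were found in NK cells too. Trbc1 was found in 26 of 43 Listeria and 57 of 77 naive NK cells, Trbc2 in 17 of 43 Listeria and 28 of 77 naive and Trdc in 3 of 43 Listeria and 13 of 77 naive, but Trac in 2 of 43 Listeria and 2 of 77 naive.

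NK cells with an Ncr1 UMI differed from those without one in genes that the gate did not use. Tbx21, the T-bet gene, was found in 14 of 27 Listeria and 16 of 33 naive NK cells with Ncr1 and in 0 of 16 Listeria and 1 of 44 naive without. Klrb1b, an inhibitory receptor of the NKR-P1 family, was found in 14 of 27 Listeria and 19 of 33 naive NK cells with Ncr1 and in 3 of 16 Listeria and 5 of 44 naive without. Prss2, which encodes a trypsinogen, was found in 0 of 27 Listeria and 0 of 33 naive with Ncr1 and in 6 of 16 Listeria and 7 of 44 naive without. In both libraries Tbx21 and Klrb1b went with Ncr1 and Prss2 went without it. Ltb, a lymphotoxin gene, was found in 23 of 27 Listeria and 29 of 33 naive with Ncr1 and in 10 of 16 Listeria and 19 of 44 naive without. Ifng was found in 13 of 27 Listeria and 24 of 33 naive with Ncr1 and in 5 of 16 Listeria and 8 of 44 naive without. Il18r1, a chain of the interleukin 18 receptor, was found in 18 of 27 Listeria and 22 of 33 naive with Ncr1 and in 5 of 16 Listeria and 17 of 44 naive without. The NK cells with Ncr1 were the shallower ones, with medians of 3912 UMIs in Listeria and 5101 UMIs in naive cells, against 5587.5 UMIs in Listeria and 6795.5 UMIs in naive cells without Ncr1.

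The Ly49 (Klra) genes, receptors that read MHC class I, went with Eomes. Eomes was found in 16 of 18 Listeria and 20 of 28 naive NK cells with a Klra UMI and in 6 of 25 Listeria and 14 of 49 naive without. Tbx21 was found in 4 of 18 Listeria and 6 of 28 naive with a Klra UMI and in 10 of 25 Listeria and 11 of 49 naive without. Prf1 was found in 8 of 18 Listeria and 12 of 28 naive with a Klra UMI and in 3 of 25 Listeria and 7 of 49 naive without. Eomes and Prf1 were thus more frequent with Klra in both libraries, which Tbx21 was not. The medians were 4347 UMIs in Listeria and 5618.5 UMIs in naive cells with a Klra gene, and 5181 UMIs in Listeria and 5850 UMIs in naive cells without.

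NK cells were set against T cells within each library, with levels as counts per 1000000 of the summed UMIs of those cells (CPM). Of 4418 genes with at least 40 UMIs, 72 (1.63%) were over 2-fold higher in NK cells in both libraries and 39 (0.883%) over 2-fold higher in T cells. Over all members, plasma and Dntt cells included, the counts were 67 (1.19%) and 39 (0.691%) of 5640 genes. Klrb1b was at 138 against 6.15 CPM in the Listeria library and 99.1 against 0 CPM in the naive library, NK against T cells. Prss2 was at 163 against 0 CPM in the Listeria library and 132 against 8.97 CPM in the naive library. Cxcl10, an interferon-induced chemokine, was at 352 against 55.4 CPM in the Listeria library and 721 against 41.9 CPM in the naive library. All 3 were higher in NK cells. On the T side beyond the CD3 genes, the log2 ratio of NK over T cells for Trac was -4.29 in the Listeria library and -5.23 in the naive library. For Trdc it was -5.26 in the Listeria library and -2.84 in the naive library, for Cd247, the ζ chain of the receptor, -2.76 in the Listeria library and -2.23 in the naive library, and for Rasgrp1, which carries receptor signals to Ras, -2.22 in the Listeria library and -1.92 in the naive library. Cxcr6 (log2 -2.44 in the Listeria library and -2.54 in the naive library), Gramd3 (log2 -3.73 in the Listeria library and -3.09 in the naive library) and the interferon-induced Ifi27l2a (log2 -2.57 in the Listeria library and -2.18 in the naive library) were also lower in NK cells. The MHC class II genes H2-Aa, H2-Ab1, H2-Eb1 and Cd74 were among the 10 largest ratios toward NK cells, with Cd74 at 305 against 6.15 CPM in the Listeria library and 970.3 against 224 CPM in the naive library. One naive NK cell held 31.8% of the Cd74 UMIs of its set, and the 14 dendritic and antigen-presenting markers reached 80 UMIs in 1 Listeria NK cell and 328 in 1 naive NK cell. The part of such cells in these ratios was not tested. Nrgn, Cpa3 and Ccdc184 completed the 10.

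**Figure D2:**
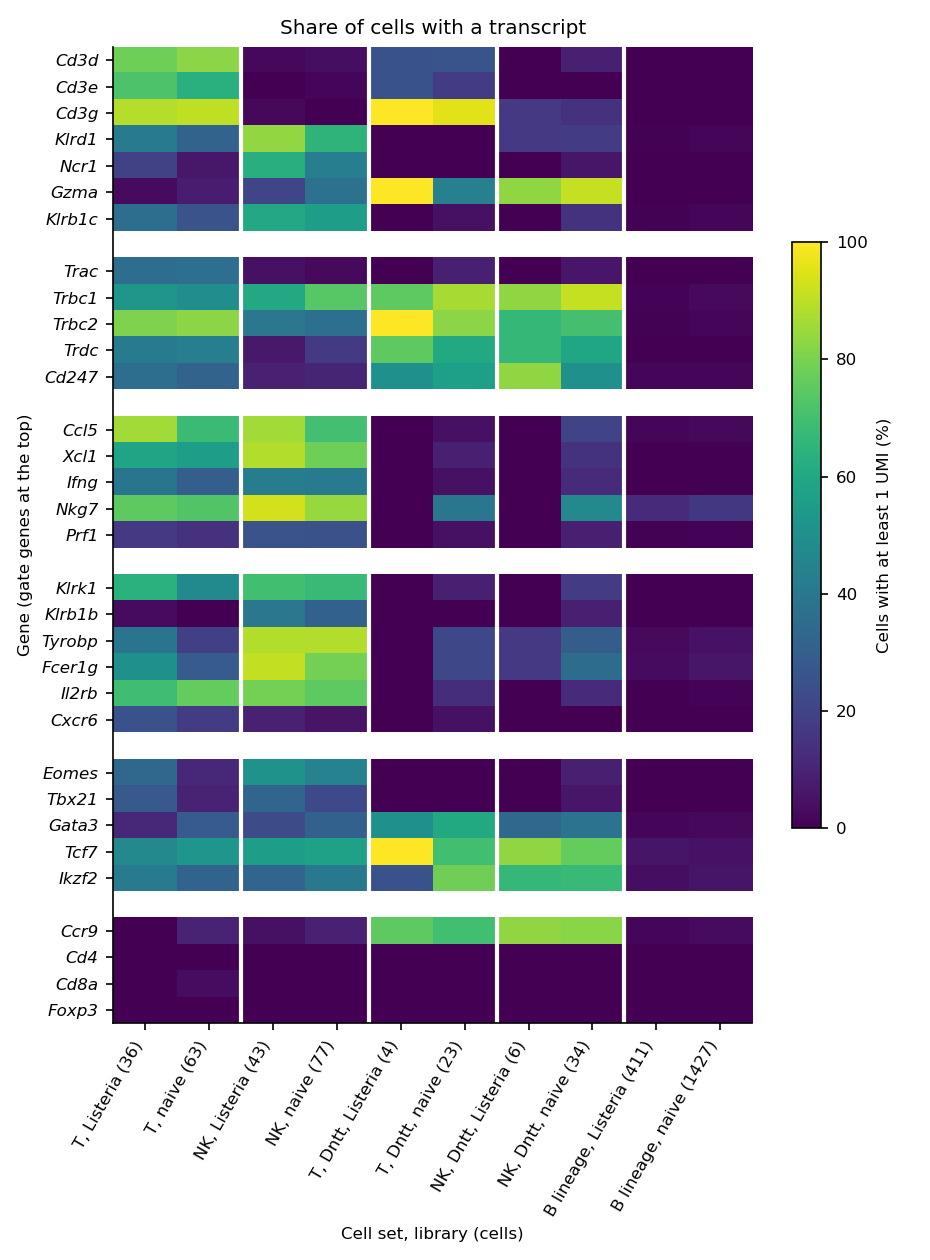
Share of cells with at least 1 UMI (colour, in percent) for chosen genes (rows) in T cells, NK cells, T-gate and NK-gate cells with Dntt, and B-lineage cells (columns, with the number of cells, the Listeria library left of the naive library in each pair). The gate genes are at the top, and the B-lineage cells were limited in them by rule. Ccl5 and Xcl1 are more frequent in T and NK cells than in B-lineage cells, and Ccr9 marks the Dntt cells. Cd4 is at 0 in every T and NK column, and B-lineage columns are highest for Nkg7, at 11.9% and 16.3%.

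T and NK cells were both a smaller share of the Listeria library. T cells formed 0.889% (0.644% to 1.20%) of Listeria and 1.36% (1.09% to 1.68%) of naive kept cells, a log2 ratio of -0.62 (-1.18 to -0.08). NK cells formed 1.01% (0.750% to 1.34%) of Listeria and 1.74% (1.43% to 2.09%) of naive kept cells, a log2 ratio of -0.78 (-1.30 to -0.28). With a minimum of 1000 UMIs per cell the log2 ratio for T cells was -0.37 (-0.88 to 0.12). The Dntt cells made up much of the difference. Without plasma and Dntt cells the log2 ratio was -0.41 (-1.04 to 0.20) for T cells and -0.44 (-1.02 to 0.11) for NK cells, and both intervals then hold 0. NK-gate cells with Dntt formed 0.124% of Listeria and 0.533% of naive kept cells, a log2 ratio of -2.10 (-3.65 to -0.84). T-gate cells with Dntt formed 0.0827% of Listeria and 0.361% of naive kept cells, a log2 ratio of -2.13 (-4.12 to -0.58). Within the NK cells without Dntt, those with an Ncr1 UMI formed 0.558% (0.368% to 0.811%) of Listeria and 0.518% (0.357% to 0.726%) of naive kept cells, a log2 ratio of 0.11 (-0.68 to 0.89). Those without one formed 0.331% (0.189% to 0.536%) of Listeria and 0.690% (0.502% to 0.925%) of naive kept cells, a log2 ratio of -1.06 (-1.99 to -0.21). Shares depend on all other cells of a library, so fewer T and NK cells cannot be told apart from more of the others.

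As shares of their own gates, all 11 subsets plotted had overlapping intervals in the Listeria and the naive library. Most of the subsets not plotted overlapped as well, but some did not. NK-gate cells with at least 2 UMIs of Trdc and the Tcrg constant genes were 8.16% (2.27% to 19.6%) of all 49 Listeria and 28.8% (20.6% to 38.2%) of all 111 naive NK cells, and after thinning 2.04% of Listeria and 12.6% of naive NK cells. Cells with Ncr1 and without Dntt were 55.1% (40.2% to 69.3%) of Listeria and 29.7% (21.4% to 39.1%) of naive NK cells. Trac was found in 30.2% of Listeria and 28.7% of naive T cells, and at least 3 UMIs of the NK genes in 25.6% of Listeria and 24.1% of naive T cells, over all T cells. Counted with the Dntt cells, Ncr1 was found in 27 of all 49 Listeria NK cells (55.1%, 40.2% to 69.3%) and 35 of all 111 naive NK cells (31.5%, 23.04% to 41.0%), and after thinning in 34.7% of Listeria and 13.5% of naive NK cells. Ncr1 is a gate gene, so its share depends also on the other ways through the gate. Gzma, another gate gene, was found in 28.6% (16.6% to 43.3%) of all Listeria and 54.1% (44.3% to 63.6%) of all naive NK cells, and these intervals did not overlap. It was the only gate gene in 12.2% of Listeria and 32.4% of naive NK cells. A Klra gene was found in 36.7% of Listeria and 27.9% of naive NK cells. Progenitor transcripts, with at least 3 UMIs summed over Cd34, Kit, Flt3, Hlf, Mecom, Meis1 and Adgrg1, were found in 24.5% of Listeria and 39.6% of naive NK cells, and after thinning in 12.2% of Listeria and 9.91% of naive NK cells. Kit belongs to immature NK cells as well as to progenitors. Without the Dntt cells, Kit was found in 20 of 43 Listeria and 45 of 77 naive NK cells, beside Ncr1 in 27 of 43 Listeria and 33 of 77 naive.

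**Figure D3:**
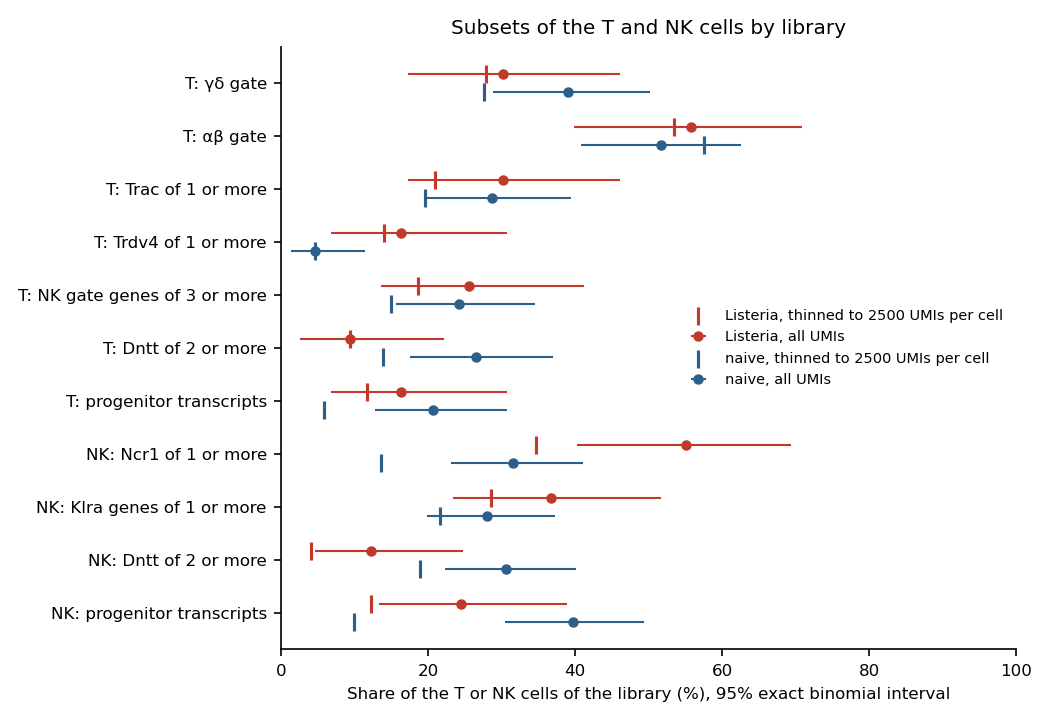
Share of all T cells (43 Listeria, 87 naive) or all NK cells (49 Listeria, 111 naive) that belonged to each subset (x axis, in percent), with exact 95% binomial intervals, the Listeria library above the naive library; vertical ticks are the shares after thinning each cell to 2500 UMIs. NK cells with Ncr1 were 55.1% of the Listeria and 31.5% of the naive NK cells, and Dntt cells 12.2% and 30.6%.

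In T cells the comparison of levels between the libraries depended on which cells were summed. A gene was called higher or lower when its ratio was past 1.5-fold, whether or not its interval holds 0. Over all T cells, 168 of 2860 genes with at least 40 UMIs (5.87%) were over 1.5-fold higher in the Listeria library and 674 (23.6%) over 1.5-fold lower, around a median log2 ratio of -0.22. Scaling with TMM factors moved that median to 0.01 and the split to 333 higher and 371 lower, and median-ratio factors gave 231 and 508. Several of the highest genes were those of the 3 plasma cells, among them Mzb1 (log2 3.57), Xbp1 (1.65), Pdia4 (2.20) and Kdelr1 (1.62) of the secretory pathway and H2-Ab1 (2.41). Among the lowest were the neutrophil genes Ngp (0 UMIs in Listeria and 234 UMIs in naive cells), Camp (log2 -6.87) and S100a8 (log2 -4.51), and the last had 99.2% of its naive UMIs in 1 cell. Without the plasma cells 219 of 2707 genes (8.09%) were higher and 465 (17.2%) lower. Without plasma and Dntt cells 1878 genes could be compared, of which 138 (7.35%) were higher and 257 (13.7%) lower, around a median of -0.06. All T cell ratios below are from this set of 36 and 63 cells. The set still holds cells with at least 3 UMIs of the progenitor genes, which were deep. Over all T cells these were 7 of 43 Listeria and 18 of 87 naive cells, with medians of 7816 and 10326.5 UMIs. They weigh more in the sums than their number, and their part in the ratios below was not tested.

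NK receptor genes were higher in T cells of the Listeria library. All 8 activating NK receptor and adaptor genes that had at least 20 UMIs over both libraries were over 1.5-fold higher, with a median log2 ratio of 1.04, beside 12% of 3570 genes over 1.5-fold higher and 18.4% over 1.5-fold lower at that minimum. Klrk1 had 95 UMIs in 23 of 36 cells of the Listeria library, against 78 UMIs in 30 of 63 cells of the naive library, or 584 CPM (473 to 715) in the Listeria library, against 233 CPM (184 to 291) in the naive library, a log2 ratio of 1.33 (0.88 to 1.78). Tyrobp had 83 UMIs in 14 of 36 cells of the Listeria library, against 73 UMIs in 12 of 63 cells of the naive library, a log2 ratio of 1.23 (0.76 to 1.70). A larger share of the Listeria cells held these UMIs, while the cells of both libraries overlapped in range, from 0 to 10 UMIs of Klrk1 in Listeria and 0 to 8 in naive cells. The log2 ratio was 1.15 (0.64 to 1.67) for Fcer1g, 0.65 (0.29 to 1.01) for Hcst, the adaptor of NKG2D, 1.04 (-0.31 to 2.39) for the adhesion receptor Cd226 and 0.74 (-0.06 to 1.53) for Klrb1c. The last 2 intervals hold 0, and without the cell of each library with most Klrb1c UMIs its log2 ratio was 0.51, within 1.5-fold. Of 6 inhibitory NK receptor genes 2 were higher and 1 lower. Cd160, a surface receptor of memory T cells and NK cells, had 35 UMIs in 17 of 36 cells of the Listeria library, against 15 UMIs in 13 of 63 cells of the naive library, a log2 ratio of 2.26 (1.35 to 3.24).

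Genes of memory T cells went the same way in part. Ms4a4b, a surface gene of T cells, had 66 UMIs in 25 of 36 cells of the Listeria library, against 45 UMIs in 32 of 63 cells of the naive library, a log2 ratio of 1.59 (1.03 to 2.17). Klf2, which drives the exit receptor S1pr1, had a log2 ratio of 0.80 (0.53 to 1.06), and S1pr1 itself 0.89 (-0.11 to 1.88), whose interval holds 0 and which was at 0.52, within 1.5-fold, without the top cell of each library. Of 9 naive and central memory genes 4 were higher and 1 lower (median 0.15), whereas over all T cells, plasma and Dntt cells included, 0 of 11 were higher and 3 lower (median -0.30). Of 14 effector and memory genes 3 were higher and 0 lower (median 0.28). Ccl5 was at 4762 CPM (4432 to 5109.7) in the Listeria library, against 2538 CPM (2370.3 to 2715) in the naive library, a log2 ratio of 0.91 (0.77 to 1.05), and Eomes had 16 UMIs in 12 of 36 cells of the Listeria library, against 12 UMIs in 7 of 63 cells of the naive library, a log2 ratio of 1.46 (0.28 to 2.67). Il18r1 was at a log2 ratio of 1.25 (0.53 to 1.98), and of 11 cytokine receptor genes 3 were higher and 1 lower (median -0.08). Xcl1 was within 1.5-fold, with a log2 ratio of 0.01 (-0.32 to 0.33).

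Part of the genes of dividing cells and of the type 2 innate lymphoid cell (ILC2) list were lower in T cells of the Listeria library. Icos had 4 UMIs in 3 of 36 cells of the Listeria library, against 39 UMIs in 14 of 63 cells of the naive library, a log2 ratio of -2.24 (-4.19 to -0.77). Rora, a nuclear receptor of type 2 and type 17 lymphocytes, had 18 UMIs in 8 of 36 cells of the Listeria library, against 109 UMIs in 25 of 63 cells of the naive library, a log2 ratio of -1.56 (-2.36 to -0.83). All 5 genes of the ILC2 list with at least 20 UMIs were lower, with a median of -1.92. The other members were Gata3 (log2 -1.28, -3.29 to 0.30), whose interval holds 0, Hlf (log2 -1.92, -3.62 to -0.58), a gene of stem cells too, and Areg, which had 0 UMIs in Listeria and 20 UMIs in naive cells and so was at least 3.24-fold lower at a floor of 3 UMIs per library. With Areg at that bound the list's median was -1.70. Trbc1 had 40 UMIs in 19 of 36 cells of the Listeria library, against 178 UMIs in 31 of 63 cells of the naive library, a log2 ratio of -1.11 (-1.65 to -0.61). Of 10 S phase genes 6 were lower and 0 higher (median -0.67), and of 6 genes of G2 and mitosis 4 were lower and 1 higher (median -1.31). Mki67 was found in 1 of 36 Listeria and 10 of 63 naive T cells, with 1 UMI in Listeria and 57 UMIs in naive cells. The histone gene Hist1h1b had 81.5% of its naive UMIs in 1 cell.

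Immediate early genes split. Of 33 measured, 10 were higher and 4 lower in T cells of the Listeria library, with a median log2 ratio of 0.07. Klf6 (log2 1.17, 0.90 to 1.43), Fos (log2 1.02, 0.70 to 1.35) and Nr4a2 (log2 1.13, 0.53 to 1.73) were higher. Atf3 (log2 -1.35, -2.05 to -0.71) and the phosphatase gene Dusp2 (log2 -0.77, -1.11 to -0.43) were lower. Such genes are known to be induced by tissue dissociation, and the handling of each library cannot be told apart from its group. Type I interferon genes had a median of -0.04, with 3 of 11 higher and 5 lower, and a TMM scaling gave 0.02 with 3 and 4. Other highest genes were Kcnq1ot1, Irf2, Plek and Tagap, with log2 ratios from 1.33 to 1.93. Clec4e, Cxcl2 and S100a9 also ranked among the highest, but 1 cell held 92.5%, 99.1% and 91.3% of their Listeria UMIs, and Cd74 was among the lowest, with 1 UMI in Listeria and 75 UMIs in naive cells. Of the 12 neutrophil granule markers 110 UMIs were in T cells of the Listeria library, 76 of them in 1 cell, and 57 in those of the naive library. The 14 dendritic markers summed to 27 UMIs in Listeria and 208 UMIs in naive T cells, and the B-lineage markers to 1 UMI in Listeria and 30 UMIs in naive T cells. The part of these in the ratios was not tested.

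In NK cells about as many genes were higher as lower. Over all NK cells, 331 of 4100 genes (8.07%) were over 1.5-fold higher in the Listeria library and 371 (9.05%) over 1.5-fold lower, around a median log2 ratio of 0.03. TMM factors gave 295 and 414, and median-ratio factors 260 and 465. The 6 lowest genes were of early B cells: Igll1, Ly6d and Ebf1 had 0 UMIs in the Listeria library, and Vpreb1, Cd79a and Vpreb3 had log2 ratios of -5.29, -4.92 and -4.57. Without the Dntt cells the 11 B-lineage markers summed to 8 UMIs in Listeria and 23 UMIs in naive NK cells, and 244 of 3117 genes (7.83%) were higher and 229 (7.35%) lower. All NK cell ratios below are from this set of 43 and 77 cells, where 12.2% of 5120 genes with at least 20 UMIs were over 1.5-fold higher and 11.4% over 1.5-fold lower. The set still holds cells with progenitor transcripts, which were deep. Over all NK cells these were 12 of 49 Listeria and 44 of 111 naive cells, with medians of 10490 and 10315.5 UMIs. They weigh more in the sums than their number, and their part in the ratios below was not tested.

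NK receptors differed in both directions. Ncr1 had 69 UMIs in 27 of 43 cells of the Listeria library, against 63 UMIs in 33 of 77 cells of the naive library, a log2 ratio of 1.06 (0.55 to 1.58), which the gate shaped. Klrk1, outside the gate, had 116 UMIs in 30 of 43 cells of the Listeria library, against 144 UMIs in 52 of 77 cells of the naive library, a log2 ratio of 0.62 (0.25 to 0.98), and Cd244, a receptor for CD48, 1.43 (0.28 to 2.63). The Ly49 genes parted. Klra7 had a log2 ratio of 0.99 (0.10 to 1.88), while Klra8, whose product Ly49H binds a cytomegalovirus protein, had 12 UMIs in 4 of 43 cells of the Listeria library, against 54 UMIs in 15 of 77 cells of the naive library, a log2 ratio of -1.24 (-2.28 to -0.32). Klra4, another activating member, had a log2 ratio of -1.06 (-1.78 to -0.38). These genes are close in sequence, and reads could be shared between them. Of 15 activating genes 4 were higher and 3 lower (median 0.16), and of 9 inhibitory genes 3 were higher and 1 lower (median 0.51).

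Gzma, also a gate gene, had 26 UMIs in 9 of 43 cells of the Listeria library, against 127 UMIs in 29 of 77 cells of the naive library, a log2 ratio of -1.36 (-2.03 to -0.74). It was the 1 of 10 cytotoxic genes that was over 1.5-fold lower, and the median of the 10 was -0.06. The 1 that was higher was Tnfsf10, which encodes the death ligand TRAIL, with 19 UMIs in 12 of 43 cells of the Listeria library, against 10 UMIs in 9 of 77 cells of the naive library, a log2 ratio of 1.85 (0.68 to 3.12). It belongs also to the ILC1 and residency list, of which 4 of 7 were higher and 0 lower with a median of 0.83. The others were Il7r (log2 0.89, 0.22 to 1.56), the receptor for interleukin 7, Rgs1 (log2 0.83, 0.58 to 1.08) and Inpp4b (log2 1.34, -0.03 to 2.77). Ifng was at 374 CPM (305 to 453) in the Listeria library, against 238 CPM (198 to 284) in the naive library, a log2 ratio of 0.65 (0.26 to 1.04), although it was found in like shares of the cells. One Listeria cell held 28.2% of its UMIs, and without the top cell of each library the log2 ratio was 0.46, within 1.5-fold. Xcl1 (log2 -0.04, -0.23 to 0.14) and Ccl5 (log2 0.06, -0.09 to 0.20) were within 1.5-fold. Of 19 transcription factors 0 were higher and 3 lower: Tox (log2 -0.84, -1.60 to -0.14), Gata3 (log2 -0.84, -1.91 to 0.11) and Bcl11b (log2 -0.66, -2.28 to 0.74). Il27ra (log2 1.76, 0.49 to 3.12), Il10rb (log2 1.41, 0.14 to 2.74) and the marrow retention receptor Cxcr4 (log2 1.16, 0.16 to 2.19) were higher. Of 13 T cell receptor and signalling genes 1 was higher and 3 were lower in NK cells: Trdc (log2 -2.01, -4.39 to -0.28), Tcrg-C4 (log2 -1.53, -3.53 to 0.03) and Trbc1 (log2 -1.24, -1.65 to -0.84). Zbtb16, which encodes PLZF and marks innate lymphoid precursors, had 10 UMIs in 6 of 43 cells of the Listeria library, against 47 UMIs in 22 of 77 cells of the naive library, a log2 ratio of -1.30 (-2.45 to -0.30).

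Ly6c2, a surface gene of maturing NK cells and of memory T cells, had 76 UMIs in 10 of 43 cells of the Listeria library, against 27 UMIs in 9 of 77 cells of the naive library, a log2 ratio of 2.42 (1.77 to 3.11). Per cell it was at 0, 0 and 23 UMIs in the Listeria library and 0, 0 and 8 UMIs in the naive library in lowest, median and highest, so a minority of cells carried it in both libraries. Part of the type I interferon genes were lower. Of 18, 8 were over 1.5-fold lower and 1, Ly6a, higher, and the median was -0.07. Rsad2, which encodes the antiviral protein viperin, had 2 UMIs in 2 of 43 cells of the Listeria library, against 45 UMIs in 14 of 77 cells of the naive library, a log2 ratio of -3.56 (-6.65 to -1.63). Ifit1 (log2 -2.83, -5.94 to -0.83) and Samd9l (log2 -1.60, -2.89 to -0.50) were lower too, and so was Isg15 (log2 -1.19, -2.76 to 0.13), whose interval holds 0. In T cells 5 of 11 of these genes were lower and 3 higher, and the difference between T and NK cells was not tested.

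Part of the cell cycle genes were higher in NK cells of the Listeria library, and in T cells such genes were lower, a difference that was not tested. Of 14 genes of G2 and mitosis 7 were higher and 0 lower (median 0.60), and of 18 S phase genes 6 and 0 (median 0.44). Over all NK cells, those with Dntt included, 1 of 25 genes of G2 and mitosis was higher and 5 lower (median 0.06), and 3 of 24 S phase genes higher and 2 lower (median 0.05), so the pattern in NK cells rests on the Dntt cut, which was chosen after the values were seen. The UMIs came from few cells. Mki67 had 53 UMIs in 5 of 43 cells of the Listeria library, against 62 UMIs in 11 of 77 cells of the naive library, a log2 ratio of 0.70 (0.14 to 1.25) that was 0.25 without the top cell of each library, and 1 cell held 93.3% of the Listeria UMIs of Ube2c and 51.5% of those of Hmgb2. Among 8 measured genes of MHC class II and dendritic cells the median was -1.07, 5 being over 1.5-fold lower and 0 higher. H2-Ab1 had 20 UMIs in 12 of 43 cells of the Listeria library, against 165 UMIs in 22 of 77 cells of the naive library, a log2 ratio of -2.12 (-2.86 to -1.44), and Cd74 -1.67 (-2.02 to -1.34). Megakaryocyte markers summed to 276 UMIs in Listeria and 199 UMIs in naive NK cells, and Pf4, the platelet chemokine and the highest of all ratios at 6.63, had 91.3% of its Listeria UMIs in 1 cell. The part of such cells in the other ratios was not tested. Other highest genes were Rgs3, Rbms1, Jmy and Akna, with log2 ratios from 1.33 to 1.72, and other lowest genes were Apoe, Rnf111, Cst3, Nrarp, Sbno2 and Vps41, with log2 ratios from -2.74 to -1.92.

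**Figure D4:**
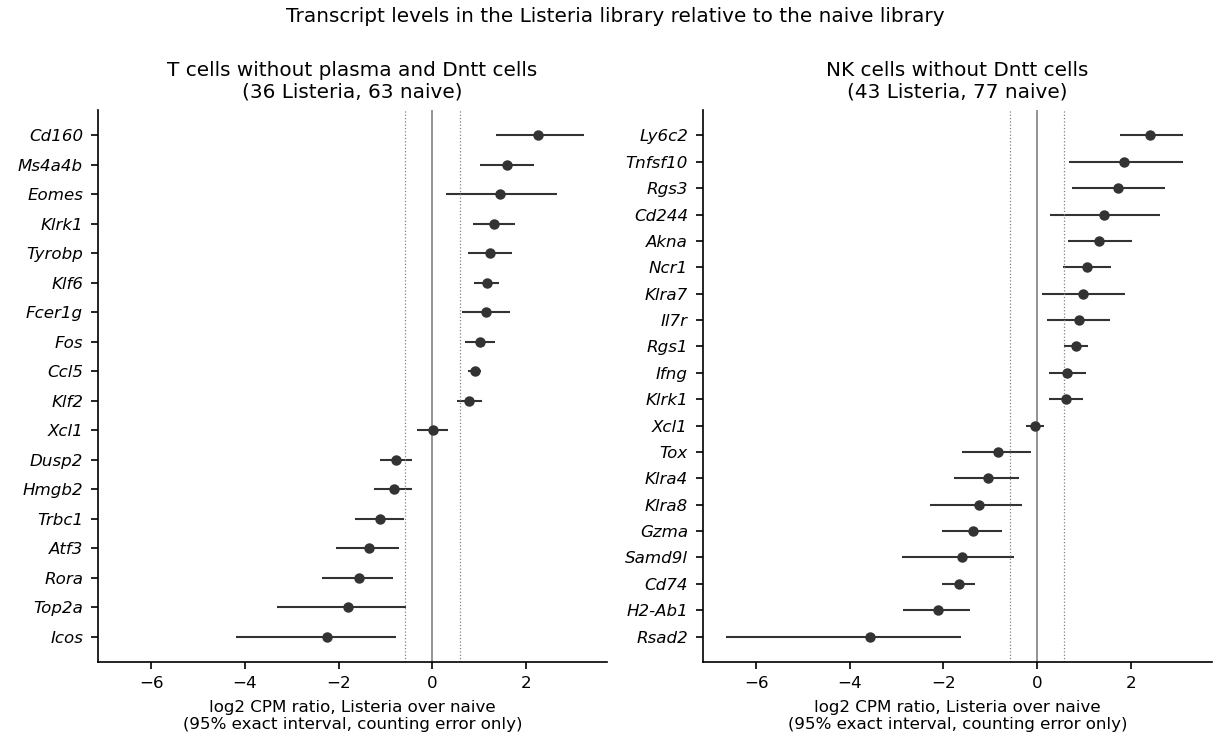
Log2 ratio of CPM in the Listeria over the naive library (x axis) for chosen genes in T cells (left, 36 Listeria and 63 naive cells) and NK cells (right, 43 and 77 cells), with exact 95% intervals for counting error; dotted lines mark 1.5-fold. Cd160 and Ms4a4b are right of 0 and Icos and Rora left of it in T cells, Ly6c2 and Ncr1 are right of 0 and Rsad2 and Gzma left of it in NK cells, and Xcl1 lies near 0 in both.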

How the data were processed

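The deposited files hold raw UMI counts per gene and barcode for 2 libraries, unfiltered. Per the submitters' processing notes the authors used Cell Ranger 3.0.2 and mm10. The labels' protocols name 10x Genomics 3′ v2 chemistry. What was computed from the counts used Python 3.11.15 with numpy 2.4.6, scipy 1.17.1 and pandas 2.3.3. Counts were summed over the cells of a set and scaled to counts per 1000000 (CPM). Intervals are exact at the 95% level (Poisson for levels, binomial for shares and, by splitting the summed counts, for ratios). Of the gene IDs, 30934 of 31053 matched the GENCODE vM21 annotation of GRCm38, whose positions are printed. Sequences are from RefSeq, for GRCm38.p6.

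The members and the gene lists were chosen with earlier results of these data known. Named genes were the gate genes, up to 6 members of a list by UMIs, and the 10 largest ratios in each direction among genes with at least 40 UMIs whose interval does not hold 0, leaving out mitochondrial, ribosomal, unnamed, immunoglobulin and sex-linked genes. Other genes named, such as the receptor segments, were chosen after their values were seen. Genes of the lists needed at least 20 UMIs. Calls were ratios over 1.5-fold between libraries, and over 2-fold in both libraries between NK and T cells. Alternatives were a lower and a higher UMI minimum, a stricter mitochondrial limit, stricter gates, other count minimums, sums without certain cells or each gene's top cell, subtraction of free RNA, thinning to 2500 UMIs, and TMM (edgeR 4.0.16) and median-ratio (DESeq2 1.42.0) scaling factors in R 4.3.3. No count model was fitted, as there was 1 library per group. The ratio and interval code was checked on simulated counts. Doublets were not called. Some genes are not reported here.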

Additional observations from a re-analysis of the deposited data

Results flagged for a closer look

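For 11 genes the ratio of the Listeria over the naive library went in opposite directions in T and NK cells, over all cells of the 2 gates with the plasma and Dntt cells included. Each was past 1.5-fold with an interval without 0 and at least 40 UMIs in both lineages. Mitochondrial, ribosomal, unnamed, immunoglobulin and sex-linked genes were left out. Before that, 101 of 2860 T cell genes were higher and 372 lower by this rule, and 172 of 4100 NK cell genes were higher and 159 lower. The differences between the 2 lineages were not tested. The log2 ratio was 1.49 in T cells and -1.08 in NK cells for Cd74, 2.41 and -1.77 for H2-Ab1, and 0.95 and -4.92 for Cd79a, an immunoglobulin receptor chain. Without the plasma cells H2-Ab1 was at -2.07 in T cells, and Cd79a had 0 UMIs in Listeria and 22 UMIs in naive T cells. Without plasma and Dntt cells Cd74 was at -5.19 in T cells and -1.67 in NK cells. The other 8 were lower in T cells and higher in NK cells, each past 1.5-fold also without plasma and Dntt cells. Of these, 2 are genes of dividing cells, Cenpa (-1.92 and 0.92) and the tubulin gene Tuba1b (-1.26 and 0.89). The rest were Dip2b (-1.12 and 0.89), Galnt1 (-1.12 and 0.66), Jmy (-1.04 and 0.75), Msl2 (-1.52 and 1.08), Rbms1 (-1.16 and 1.24) and Zfpm1 (-1.26 and 0.78).

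Barcodes with at least 1000 UMIs and under 2500, below the minimum used, also held T and NK cells. There were 11 T cells among 113 such barcodes of the Listeria library (9.73%, 4.96% to 16.8%) and 8 among 349 of the naive library (2.29%, 0.995% to 4.47%). Trac was found in 6 of these Listeria and 2 of these naive cells and Ccl5 in 10 Listeria cells and 1 naive cell, and 1 Listeria cell had Cd4, which 0 of the kept T cells had. NK cells numbered 2 of 113 in the Listeria and 7 of 349 in the naive library.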

How the results depend on the processing

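No paired analysis was possible because each group was 1 library. All values compare the Listeria with the naive library. T and NK shares were below those of the naive library in every alternative run. The interval of the log2 ratio held 0 for T cells with the 1000-UMI minimum (-0.37), the stricter gate (-0.39), without progenitor or B-lineage cells (-0.58) and without plasma and Dntt cells (-0.41), and for NK cells with the stricter gate (-0.58), without progenitor or B-lineage cells (-0.46) and without Dntt cells (-0.44). T cell genes past 1.5-fold lower, 674 in the report, numbered 338 with the stricter gate, 294 without progenitor or B-lineage cells, 371 with TMM, 2614 with no UMI minimum, 201 at 100 UMIs and 257 without plasma and Dntt cells. Those higher numbered 333 with TMM, 1897 with no minimum and 47 at 100 UMIs. NK cell genes lower numbered 215 with the stricter gate, 1767 with no minimum, 83 at 100 UMIs, 572 with the top cell of each gene left out and 229 without Dntt cells, and those higher 207 without progenitor or B-lineage cells, 2285 with no minimum and 64 at 100 UMIs. Thinning gave 27.6% γδ and 14.9% NK-gene T cells in the naive library, 6.98% of Listeria and 19.5% of naive T cells with regulatory genes, and 5.75% of naive T cells, 12.2% of Listeria and 9.91% of naive NK cells with progenitor transcripts. Against ratios over all cells of each gate, directions turned among named genes in T cells for Ccr9 (0.53, stricter gate), S100a8 (0.37 without progenitor cells, 2.36 without plasma and Dntt cells), H2-Ab1 (-2.10 with a receptor constant gene required, -2.07 without plasma cells), Xbp1 (-0.42, -0.40 and, without Dntt cells too, -0.47) and Cxcl2 (-1.10 without its top cell). In NK cells Xcl1, 0.24 over all NK cells, turned (-0.13, -0.14 and -0.042 with the stricter gate, without progenitor cells and without Dntt cells). The cause was not tested. Of 408 such values in T cells 366 stayed within the interval of the reported value, and of 395 in NK cells 376. Runs that changed only the UMI minimum per gene leave each ratio as it was, so their values are among those within by construction. Depth limits rare transcripts: a T cell had a median of 3897 UMIs in the Listeria and 4356 UMIs in the naive library.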
